A study of Mus musculus with 16 samples.

Results

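The immediate early genes Fos, Fosb, Jun, Junb, Jund, Egr1, Atf3, Ier2, Ier3 and Dusp1 were followed in basal cells of the mouse limbal and corneal epithelium. Every probe set annotated to exactly 1 of these 10 symbols was taken, which gave 12 of the 45037 probe sets on the array that are not controls. Of the 12, 8 passed a filter on low signal and were tested, 1 for each of Fos, Jun, Jund, Egr1, Atf3, Ier2, Ier3 and Dusp1. The other 4 were the single probe sets of Fosb and Junb and a further probe set each of Jun and Jund.

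The study compared limbal epithelial basal cells with corneal epithelial basal cells of wild-type mice, 8 arrays per site, both captures coming from each of 8 animals. The limbus, the rim of the cornea next to the conjunctiva, is regarded as the niche of its epithelial stem cells. Each capture held 300 cells cut out by laser microdissection, and its RNA was amplified before hybridisation to 1 Affymetrix array. The labels name no treatment and no allele other than wild type, and give no age or strain.

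Immediate early genes are transcribed within minutes of a stimulus such as a growth factor, a wound or stress, without the need for new protein synthesis. Fos and Jun proteins pair through leucine zippers to form the transcription factor AP-1, Egr1 is a zinc finger factor, and Dusp1 is a phosphatase that switches off the MAP kinases upstream. In corneal epithelium these genes are known to respond to injury. In tissue that was dissected before freezing or lysis their transcripts can also rise during handling. The labels do not give the time between death and capture.

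The arrays were scanned on 3 days, and they were of unequal quality. Day 1 held mice 1 and 2, day 2 held mice 3, 4 and 5, and day 3 held mice 6, 7 and 8, each mouse with both of its arrays. The median correlation across probe sets between arrays of the same day was 0.51, 0.28 and 0.83 for days 1, 2 and 3. On day 2 the brightest 1% of the probe sets began at a signal of 4908 or less, on day 3 at 14916 or more. The corneal array of mouse 5 had the lowest median correlation with the other arrays, 0.17. The sample name stored with the array held a letter for the site in 10 of 16 cases, in all 10 the letter of the title, and the 6 arrays of day 2 carried codes without such a letter. Among the 4 arrays of day 1, whose stored names begin like the titles, the mouse number was that of the title in 2, and both arrays of mouse 2 carried another number. The titles were used throughout. The mean log2 signal of the corneal epithelial markers Krt12, Aldh3a1, Pax6, Tkt and Gja1 was between 12.61 and 15.23 in limbal arrays and between 9.74 and 16.35 in corneal arrays, the lowest being the corneal array of mouse 5.

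No immediate early gene passed the test between limbal and corneal cells. In limma with the mouse as a term, 0 of the 8 tested probe sets had an adjusted p under 0.05, where 0.0851% of all 27022 tested probe sets did (0.0814% higher and 0.0037% lower in limbal arrays). At an unadjusted p under 0.05 there was 1, Dusp1, and 6.46% of all tested probe sets lay under that limit. That count was 0 with the mouse left out of the model, after quantile normalization, with array weights, within scan day 2 alone, and without mouse 2, 6 or 7. Within scan day 1 alone the 1 probe set was that of Jund. The count was 2 within scan day 3 alone, without scan day 2, without mouse 3 and without mouse 4. The limbal minus corneal difference, in log2 of the signal plus a constant of 89.4, was above 0 for Dusp1, Atf3, Ier3, Jund and Egr1 and below 0 for Fos, Jun and Ier2. The median over the 8 genes was 0.44, against 0.01 over all 13570 tested genes. Taken within each mouse, the median of the 8 genes had an SD of 0.64 over the mice. Differences above 0 made up 5 of 8 among the immediate early genes and 50.9% of all tested genes. Without mouse 5 the median was 0.34, and 0 of the 8 passed. On all 12 probe sets the limbal and the corneal signals overlapped. The share of all tested probe sets with such an overlap was not counted, so this only describes the signals.

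**Figure D1:**
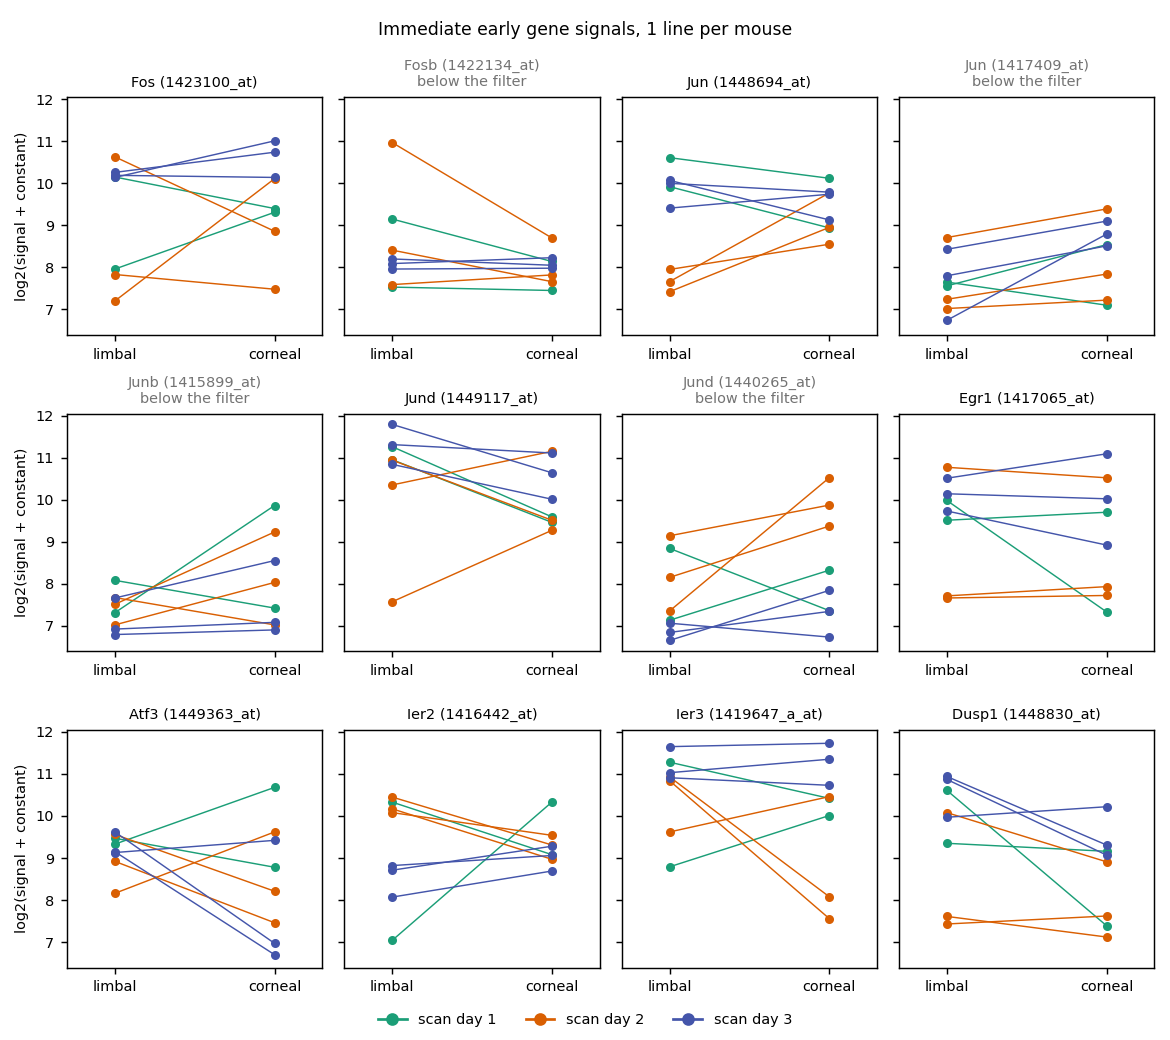
Signal of each of the 12 probe sets as log2(signal + constant), limbal on the left and corneal on the right of each panel, with 1 line per mouse coloured by scan day. The 4 panels with grey titles were below the filter on low signal.

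Among the AP-1 subunits, Fos (probe set 1423100_at), which encodes the founding partner of Jun, had limbal signals from 57.2 through a median of 1042.8 to 1500.5, against corneal signals from 88.9 through 802.0 to 1979.8. The lowest limbal value came from mouse 4 and the lowest corneal value from mouse 5, both on scan day 2. Its mean log2 signal was 9.29 ± 1.38 in limbal and 9.63 ± 1.14 in corneal arrays (SD, n = 8 each). The difference was -0.34 ± 0.45 (SE; 95% interval from -1.24 to 0.57; limma adjusted p = 0.96), above 0 in 4 mice and below 0 in 4. Mice 3 and 4 lay at the ends, with 1.77 and -2.92. On scan day 3 the 3 limbal signals were between 1042.8 and 1133.1 and the 3 corneal ones between 1039.2 and 1979.8, a difference of -0.44 ± 0.35.

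The promoters of Fos, Atf3 and Dusp1 are shown because Fos is the founding member of the AP-1 genes and because Dusp1 and Atf3 had the largest differences among the 8 tested probe sets. All 3 hold at least the core of the cyclic AMP response element (CRE), through which cyclic AMP and calcium signals are known to reach immediate early genes, and only that of Dusp1 holds the full element. Each is the 250 bases before the start of the gene, from RefSeq on GRCm38.p6, written 5′ to 3′ on the strand of the gene. Capitals mark TGACG, the core of the CRE, on either strand, the full CRE TGACGTCA, and the TATA box TATAAA.
Fos promoter (chr12:85473640-85473889, plus strand): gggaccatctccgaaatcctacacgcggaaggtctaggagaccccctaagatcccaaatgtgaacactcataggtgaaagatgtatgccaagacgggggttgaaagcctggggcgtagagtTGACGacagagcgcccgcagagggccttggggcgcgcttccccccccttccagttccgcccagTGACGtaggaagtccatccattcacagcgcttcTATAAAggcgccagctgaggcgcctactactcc
Atf3 promoter (chr1:191183334-191183583, minus strand): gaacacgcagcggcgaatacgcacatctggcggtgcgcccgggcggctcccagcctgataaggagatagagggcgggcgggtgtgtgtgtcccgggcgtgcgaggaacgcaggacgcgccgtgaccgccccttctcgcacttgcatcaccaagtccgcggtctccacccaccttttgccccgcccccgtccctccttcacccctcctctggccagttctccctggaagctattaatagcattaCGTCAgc
Dusp1 promoter (chr17:26508473-26508722, minus strand): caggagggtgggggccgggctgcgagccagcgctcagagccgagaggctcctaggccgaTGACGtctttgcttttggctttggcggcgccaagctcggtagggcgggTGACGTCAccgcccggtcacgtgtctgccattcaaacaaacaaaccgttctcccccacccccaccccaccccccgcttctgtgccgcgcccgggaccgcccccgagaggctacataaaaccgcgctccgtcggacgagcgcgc
Of the 10 genes, 8 were matched in the RefSeq promoter table, and Egr1 and Ier2 were not matched. TGACG was present in 5 of the 8 promoters (Fos, Fosb, Junb, Atf3 and Dusp1), and in 17.8% of all 32851 promoters of the same length. The full CRE, which contains the core on both strands, was found in 1 of 8, Dusp1, and in 1.55% of all promoters. TATAAA was found in Fos alone of the 8, and in 12.4% of all. The AP-1 site TGAGTCA and the CArG box, the sequence bound by serum response factor, were found in 0 of these 8 windows, and in 4.46% and 1.47% of all promoters. All were searched on both strands, within the 250 bases before the start only. Sites farther from the start, and any of Egr1 and Ier2, were not searched. The genes that hold the core did not share a direction: the difference was -0.34 for Fos and 1.01 for Dusp1.

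Jun, the main partner of Fos in AP-1, was read by 2 probe sets. On 1448694_at its limbal signals ran from 82.0 through a median of 735.5 to 1475.1, against 285.6 through 618.1 to 1026.0 in corneal arrays. The 3 lowest limbal values were those of mice 3, 4 and 5, at 157.5, 112.2 and 82.0. The difference was -0.25 ± 0.43 (95% interval from -1.12 to 0.63; limma adjusted p = 0.97), with 4 mice above 0 and 4 below. The mean over the mice of scan days 1, 2 and 3 was 0.74, -1.41 and 0.27, so that day 2 alone lay below 0. The other probe set, 1417409_at, was below the filter, and its limbal signals of 17.6 to 330.6 were lower than the corneal ones of the same animal, 48.2 to 583.8, in 7 of 8 mice, mouse 1 being the exception. That probe set had a signal under the added constant on 5 of 16 arrays. Of all tested genes, 4.38% were lower in 7 or 8 mice, a share that leaves out probe sets below the filter.

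Junb and Jund encode the other Jun proteins, of which JunB is known to restrain growth in keratinocytes. Junb (1415899_at) had a signal under the added constant on 8 of 16 arrays and was below the filter. It ran from 21.0 through a median of 80.6 to 181.0 in limbal arrays, against 30.4 through 126.8 to 837.8 in corneal arrays. The corneal maximum was that of mouse 2. Jund (1449117_at) had limbal signals from 100.9 through 1881.7 to 3443.6, against corneal signals from 526.9 through 812.6 to 2189.9. The limbal signal of mouse 4 stood apart at 100.9. The next limbal one was 1213.6 in mouse 3, where the corneal signal was 2189.9. The difference was 0.53 ± 0.42 (95% interval from -0.32 to 1.38; limma adjusted p = 0.89), above 0 in 6 of 8 mice and below 0 in mice 3 and 4. Without scan day 2 it was 1.07 ± 0.36 (limma adjusted p = 0.445). The further probe set of Jund, 1440265_at, was below the filter and pointed the other way, with a difference of -0.77 and 2 mice above 0. It had a signal under the constant on 8 of 16 arrays.

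Fosb, a Fos relative known for its persistent forms in brain, was also below the filter (1422134_at). Its limbal signals ran from 95.3 through 193.6 to 1912.3 and its corneal ones from 85.1 through 169.1 to 327.8. The limbal array of mouse 5 stood alone at 1912.3, the next limbal value being 479.2 in mouse 2. On scan day 3 the limbal signals were between 159.6 and 204.1 and the corneal ones between 163.1 and 211.6, and the 3 mice of that day differed by between -0.14 and 0.15.

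Egr1 and Atf3 encode transcription factors outside the Fos and Jun families, Atf3 being a stress-induced factor that can pair with Jun proteins. Egr1 (1417065_at) had limbal signals from 112.9 through a median of 840.1 to 1661.8, against corneal signals from 71.3 through 568.6 to 2090.5. Low and high arrays came from the same mice: both sites were at 153.7 or less in mice 3 and 5 and at 1365.4 or more in mice 4 and 6. In mouse 1 alone the sites were far apart, with 918.1 in limbal and 71.3 in corneal cells. The difference was 0.35 ± 0.42 (95% interval from -0.51 to 1.20; limma adjusted p = 0.95) and 0.02 without mouse 1.

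Atf3 (1449363_at) was even across limbal arrays and scattered across corneal ones. Its limbal signals ran from 195.8 through 518.3 to 700.1, and its corneal signals from 14.3 through 277.5 to 1555.4. The log2 SD was 0.47 in limbal and 1.40 in corneal arrays (n = 8 each), and the difference in spread was not tested. Corneal signals were under the added constant in mice 5, 6 and 7, at 87.0, 36.0 and 14.3. The difference was 0.69 ± 0.48 (95% interval from -0.28 to 1.66; limma adjusted p = 0.87), above 0 in 5 of 8 mice. It was -0.33 ± 0.87, 0.45 ± 1.01 and 1.61 ± 0.59 on scan days 1, 2 and 3.

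Ier2 and Ier3 encode small early response proteins, Ier3 being known to modulate survival and ERK signalling. Ier2 (1416442_at) had limbal signals from 42.2 through a median of 679.0 to 1311.2, against corneal signals from 323.9 through 492.2 to 1193.7. The difference was -0.07 ± 0.46 (95% interval from -1.0 to 0.86; limma adjusted p = 0.99). Mouse 1 had -3.29, from a limbal signal of 42.2, under the added constant, and a corneal one of 1193.7. Without mouse 1 the difference was 0.39. In mice 2 to 5 the limbal array was the higher by 0.54 to 1.25, while in mice 6 to 8 it was the lower, with differences from -0.62 to -0.24.

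Ier3 (1419647_a_at) had limbal signals from 353.4 through a median of 1852.8 to 3123.0, against corneal signals from 99.3 through 1296.5 to 3298.6. The difference was 0.59 ± 0.45 (95% interval from -0.33 to 1.51; limma adjusted p = 0.89), above 0 in 4 mice. Mice 3 and 5 contributed 3.28 and 2.86, with corneal signals of 99.3 and 180.4, the 2 lowest of the group. Without mouse 3 the difference was 0.21, and without mouse 5 it was 0.27. On scan day 3 both sites were between 1609.4 and 3298.6, and the difference was -0.07 ± 0.32.

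Dusp1 (1448830_at), the MAP kinase phosphatase, had the largest difference of the 8 tested genes. Its limbal signals ran from 83.1 through a median of 952.9 to 1878.0, against corneal signals from 50.0 through 419.0 to 1103.6. The mean log2 signal was 9.61 ± 1.39 in limbal and 8.60 ± 1.09 in corneal arrays (SD, n = 8 each). The difference was 1.01 ± 0.44 (95% interval from 0.12 to 1.90), or 2.01-fold, with an unadjusted p of 0.0279 and a limma adjusted p of 0.717. It was above 0 in 6 of 8 mice, led by mouse 2 with 3.22. There the limbal signal was 1468.9 and the corneal one 78.2, under the added constant. Dusp1 had a signal under that constant on 3 of 16 arrays. Mice 4 and 8 differed by -0.19 and -0.25. Within scan days 1, 2 and 3 the difference was 1.70 ± 1.03, 0.49 ± 0.84 and 1.06 ± 0.45, and without mouse 2 it was 0.69 over the 7 other mice.

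The limbal minus corneal differences of stromal, immune and conjunctival markers were set beside those of Dusp1 in each mouse. All 7 stromal markers (Col1a1, Col1a2, Col3a1, Dcn, Lum, Vim and Kera) had a positive limbal minus corneal difference, with a median of 2.03. Of them 2, Col1a2 and Vim, passed the test. The smallest were Kera, at 0.21 ± 0.44 and higher in 4 of 8 mice, and Lum, at 0.73 ± 0.45 and higher in 5. Of all tested genes, 50.9% had a difference above 0. None of the stromal marker signals was at 0. Their sum was between 4353 and 274691 in limbal arrays and between 1932 and 26320 in corneal arrays. The mean difference of these markers was 2.4, 4.07, 1.18, 0.53, 0.13, 4.22, 2.63 and -0.32 in mice 1 to 8. That of Dusp1 was 0.19, 3.22, 0.49, -0.19, 1.17, 1.80, 1.63 and -0.25. Mice 2, 6 and 7 were high in both, while mouse 1 was at 2.4 in the stromal markers and at 0.19 in Dusp1. Mouse 5 was at 0.13 in the stromal markers and at 1.17 in Dusp1. The 6 immune markers had a median of 1.12 and 6 of 6 positive differences, with 1, H2-Aa, past the test. Csf1r and Cd74 were each higher in 4 of 8 mice. The summed signal of the 6 was between 1337 and 110775 in limbal arrays and between 1284 and 10760 in corneal arrays, with none at 0. The mean difference of the immune markers was 2.63, 2.31, 0.88, -0.93, -0.16, 3.64, 2.88 and 0.16 in mice 1 to 8. All 5 conjunctival keratins (Krt4, Krt7, Krt8, Krt13 and Krt19) also had positive differences, with a median of 1.83 and 1, Krt4, past the test. Their summed signal was between 1417 and 61959 in limbal arrays and between 901 and 13346 in corneal arrays, with none at 0. Their mean difference was 1.43, 3.96, 2.61, -0.5, 2.29, 2.52, 3.92 and 0.54 in mice 1 to 8. The part of such cells in the Dusp1 values was not tested. In captures of this kind, fewer cells of a type and less RNA per cell cannot be told apart.

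**Figure D2:**
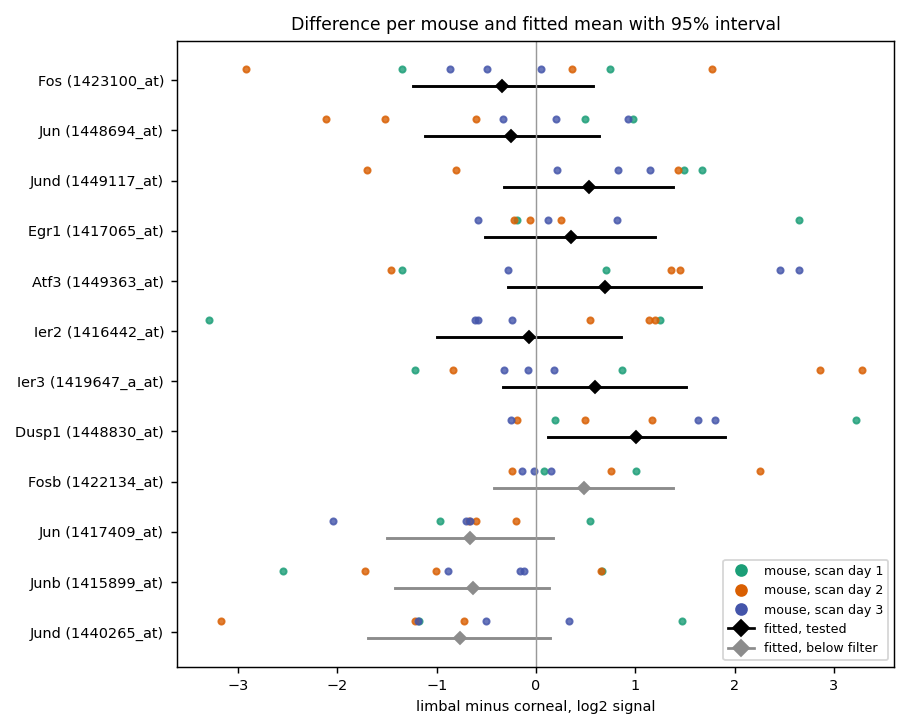
Limbal minus corneal log2 difference of each probe set, with 1 point per mouse coloured by scan day, the fitted mean as a diamond and its 95% interval as a line (grey where the probe set was below the filter). Dusp1 has the interval from 0.12 to 1.90, and the intervals of the other 11 probe sets include 0. The unadjusted p of Dusp1 was not under 0.05 without mouse 2, 6 or 7.

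Seen by mouse, the immediate early genes did not move as a block. In mouse 2, 7 of the 8 tested genes were higher in the limbal array, with a median difference of 0.80, and in mouse 5 this held for 6 of 8, with a median of 1.15. Mouse 4 had 3 of 8 higher and a median of -0.52. The medians of mice 1, 6 and 8 were also below 0, at -0.52, -0.06 and -0.1. Mouse 1 had -3.29 for Ier2 and 2.65 for Egr1. In mouse 8 the sites were close for every gene, with differences between -0.62 (Ier2) and 0.21 (Jund).

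**Figure D3:**
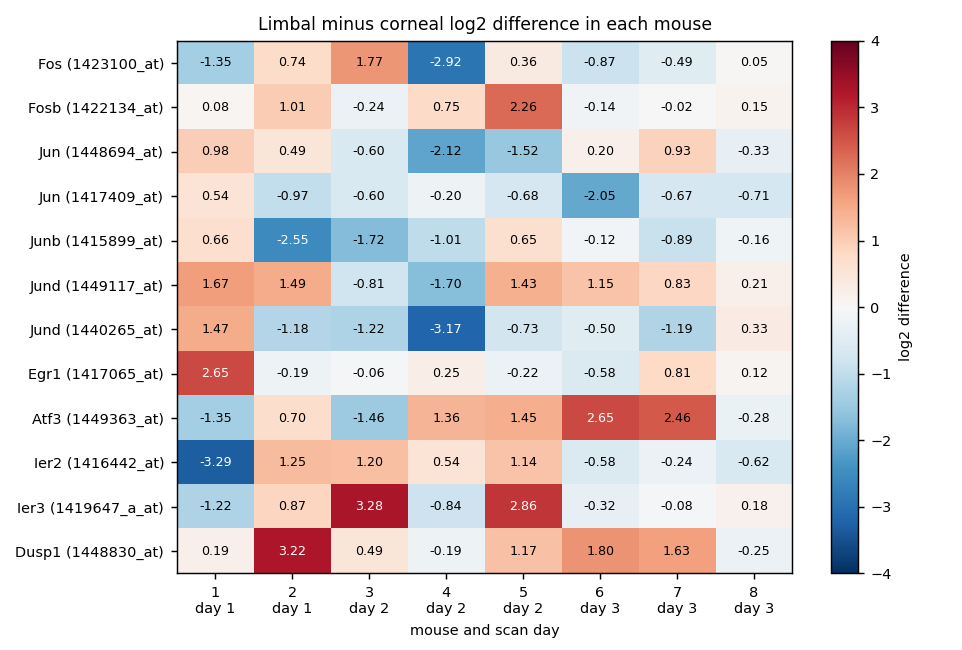
Limbal minus corneal log2 difference of the 12 probe sets (rows) in each of the 8 mice (columns, with scan day), red where the limbal array was higher and blue where it was lower. No row has the same sign in all 8 mice, and the column of mouse 8 is pale throughout, with tested genes between -0.62 and 0.21.

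The spread between arrays followed the scan day. Over the arrays of days 1, 2 and 3, the 8 tested genes had a median SD of 0.98, 1.23 and 0.51, beside 0.86, 1.10 and 0.58 for all tested genes. On day 3 Jun had the smallest SD, 0.36, and Atf3 the largest, 1.31. Around the fit over all mice the genes had a median residual SD of 0.93, beside 0.87 for all tested genes. Among probe sets within 0.25 of the same mean log2 signal, the residual SD of Ier3 lay at the 88.4th percentile, that of Atf3 at the 82.3rd and that of Egr1 at the 30.9th.

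The genes were also compared with each other across the 16 arrays, after subtracting the mean of each scan day. The 28 pairs had a median Pearson r of 0.00, between -0.34 for Jund with Egr1 and 0.68 for Ier2 with Ier3. The r was above 0 in 14 of the 28 pairs, and in 50.5% of all pairs of tested genes. The arrays of a mouse share animal and scan day, so these values are a description. The mean of the 8 genes was followed most closely, among 13562 other genes, by Sec24d, Atf4, Sulf2, Klhl8, Lin7b and Cytip, with r between 0.80 and 0.86 and Spearman's rho between 0.70 and 0.83 over 16 arrays. They were picked as the highest of all. Without the 2 arrays farthest from the median of that mean, their r was between 0.69 and 0.94. Their limbal minus corneal differences were between 0.39 and 1.08, with limma adjusted p from 0.679 to 0.95. The mean they were ranked by still held the difference between the sites, so the picking favours genes of the same direction.

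Other genes of the response were read from lists, and 0 of their members passed the test in either direction, where 0.133% of all 13570 tested genes did. Of 12 tested AP-1 partners and relatives, 5 differences were above 0, and the median was -0.05. Batf, a basic leucine zipper factor that pairs with Jun proteins, had the smallest p, with a difference of -1.24 ± 0.45, lower in 7 of 8 mice (limma adjusted p = 0.553). Its limbal mean log2 signal, 8.16, lay below the filter limit of 8.27 set on the mean of all arrays. Batf passed the filter only through its corneal arrays. Jdp2, a repressor of AP-1, differed by -0.67 ± 0.43, and the small Maf gene Maff by -0.63 ± 0.42.

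Among 14 other immediate early transcription factors the median difference was 0.22, with 8 above 0. Egr3, the zinc finger relative of Egr1, differed by 1.58 ± 0.48, higher in 6 of 8 mice (limma adjusted p = 0.342). The orphan nuclear receptor genes Nr4a2 and Nr4a1 lay on opposite sides, at -0.97 ± 0.44 and 0.93 ± 0.46. The corneal mean log2 signals of Egr3 and Nr4a1, 8.12 and 8.17, lay below the filter limit of 8.27. These genes passed the filter only through their limbal arrays. Feedback regulators had a median of 0.24, with 9 of 15 above 0. Socs3, an inhibitor of cytokine signalling, differed by 1.39 ± 0.47 and Errfi1, an inhibitor of the EGF receptor, by 1.16 ± 0.46, each higher in 7 of 8 mice (limma adjusted p = 0.486 and 0.643). The NF-kappa B inhibitor gene Nfkbia differed by 0.93 ± 0.51. Of all tested genes, 4.37% were higher in 7 or 8 mice.

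Early induced secreted and membrane genes had a median of -0.09, with 3 of 9 above 0. Ereg, which encodes the EGF receptor ligand epiregulin, differed by 1.62 ± 0.47, higher in 7 of 8 mice (limma adjusted p = 0.313), the smallest p in these lists. Its mean log2 signal was 9.31 ± 1.15 in limbal and 7.69 ± 0.95 in corneal arrays (SD, n = 8 each). The corneal mean lay below the filter limit of 8.27, so Ereg passed the filter only through its limbal arrays. The matrix-associated growth factor gene Ccn2 differed by 0.97 ± 0.56 and the cytokine gene Lif by 0.58 ± 0.46. Upstream kinases and serum response factors had a median of -0.10, with 4 of 12 above 0. In that list Elk1, a partner of serum response factor, differed by -0.78 ± 0.44, the coactivator gene Mrtfa by 0.70 ± 0.45 and the JNK kinase gene Mapk9 by -0.58 ± 0.40. The corneal mean of Mrtfa, 8.06, was also below the filter limit.

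Heat shock genes, which respond to protein damage, had a median of -0.13, with 4 of 10 above 0. Hsph1, Hspa1a and Hspe1, which encode chaperones, differed by 0.70 ± 0.44, -0.64 ± 0.42 and -0.68 ± 0.48. At an unadjusted p under 0.05 there were 1 AP-1 relative, 2 other transcription factors, 2 feedback regulators, 1 secreted gene, 0 upstream genes and 0 heat shock genes. That is 6 of the 72 tested list genes, beside 6.71% of all tested genes, so the count was near the background. Among the genes counted, Batf, Egr3 and Ereg passed the filter only through the site where they were higher. The count is therefore only a description of the lists.

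**Figure D4:**
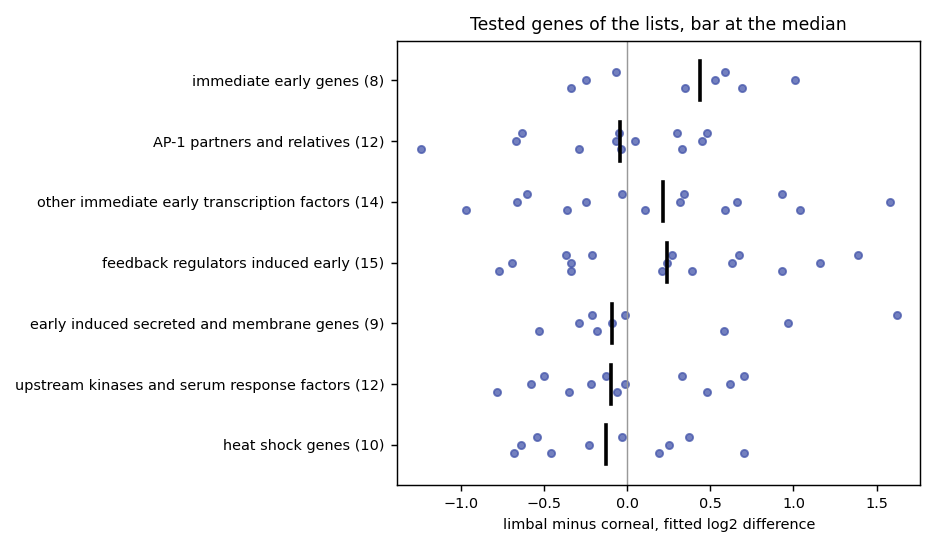
Fitted limbal minus corneal log2 difference of each tested gene in 7 lists (number of genes in brackets), with the median as a black bar. The medians lie between -0.13 for the heat shock genes and 0.44 for the immediate early genes, and no point passed the test.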

How the data were processed

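The deposited values were linear intensity signals, 1 for each probe set on each array, made with an algorithm not given in the sources used here. With 2% trimmed from either end, all columns averaged 500.0, so the authors had scaled the arrays to 1 target, which also raises the background of dim arrays. Array information files were used for the scan day and the stored sample name only.

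Values were taken as log2(signal + 89.4), where the constant is the 25th percentile of the table, a scale that understates differences of dim probe sets. The test took in the 27022 of 45101 probe sets (64 were controls) whose mean log2 lay above the 40th percentile. In the platform annotation 34958 probe sets had 1 symbol, 932 had several and 9160 were not listed. The brightest tested probe set with 1 symbol stood for its gene.

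The sites were compared in limma 3.58.1 (R 4.3.3), fitting each mouse as a fixed effect, with a variance trend and Benjamini-Hochberg adjustment over all tested probe sets (threshold 0.05). The pairing comes from the design, both captures being from the same animal. Deviations from the group means correlated with a median r of 0.30 between the arrays of a mouse (0.03 in mouse 2, above 0.1 in 7 of 8). Between those of different mice, scanned on the same or on other days, it was -0.06. Both arrays of a mouse share a scan day, so these values cannot tell animal from scan day and do not check the pairing. The number of arrays limits the precision. All 12 probe sets were described, the list genes named are the 3 with the smallest p, and the 6 genes most like the mean of the members are given. The members and lists were chosen with earlier results of these data known. The settings varied were the mouse term (as a random effect through statmod 1.5.0, or none), the filter, the constant, normalization, array weights, probe set averaging, scan days and single mice.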

Additional observations from a re-analysis of the deposited data

Results flagged for a closer look

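In 2 of 24 groups of 8 arrays, a single array stood apart from the rest of its group by a gap past Dixon's critical value, which chance gives in about 1 of 20 groups. Fosb (1422134_at) had a log2 signal of 10.97 in the limbal array of mouse 5, the next limbal array being at 9.15, a gap of 0.528 of the group's range. Jund (1449117_at) had 7.57 in the limbal array of mouse 4, the next being at 10.35, a gap of 0.659 of the range. Both arrays were scanned on day 2.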

How the results depend on the processing

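No member probe set passed the threshold under any of the 19 alternatives that were counted. The members' median difference was between 0.19 (scan day 3 alone) and 0.51 (without scan day 2) over 20 alternatives, beside an SD of 0.64 over mice. Dusp1 was above 0 in all 20, from 0.49 to 1.70 (adjusted p between 0.512 and 1), but its unadjusted p was not under 0.05 with no replicate block, after quantile normalization, with array weights, within scan day 1 or 2, and without mouse 2, 6 or 7. The direction of 7 genes turned in at least 1 alternative. Within scan day 1 the difference was 0.74 for Jun, -0.33 for Atf3 and -0.18 for Ier3. Within day 2 it was -0.36 for Jund, -0.01 for Egr1 and 0.96 for Ier2, and within day 3 it was 0.27 for Jun and -0.07 for Ier3. Without day 2 it was 0.46 for Jun and -0.11 for Ier3, and after quantile normalization 0.01 for Ier2. Leaving out 1 mouse gave -0.64 to 0.03 for Fos and -0.42 to 0.02 for Jun, both turned without mouse 4, and -0.26 to 0.39 for Ier2, turned without mouse 1 and at 0.00 without mouse 8. The cause was not tested. Averaging probe sets changed no member's difference, since each had 1 tested probe set. Standard errors and adjusted p did move, for Dusp1 to 0.38 and a limma adjusted p of 0.664.

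Over all tested probe sets the count of calls, 23, was 0 with no replicate block (the pairing by mouse left out), 11 with a constant of 16, 0 after quantile normalization, 117 with array weights, and 104, 0 and 0 within scan days 1, 2 and 3. Leaving out 1 mouse gave 0 (mouse 2) to 52 (mouse 8). At an unadjusted p under 0.05 limma had 858 with no replicate block and 1584 after quantile normalization, against 1746. The block changed no call among the members. Low signal limits Junb and the second probe set of Jund, which were under the constant on 8 of 16 arrays. It also limits the second probe set of Jun, under the constant on 5 of 16.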
